A study of Homo sapiens with 12 samples.

Results

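The genes described here were each expressed by 3 of 4 cancer cell lines and silent in the remaining line. Of 57187 genes in the count table, 34909 had at least 1 count, and 100 were chosen by their measured values as silent in exactly 1 line. A gene was selected when it had at most 3 counts in each of the 3 libraries of a line and at least 5 CPM in all 9 libraries of the other 3 lines. CPM scales a count to its library, whose CPM values sum to 1000000, so it compares a gene between libraries and not 1 gene with another. The 100 genes comprised 49 silent in HCC1954, 19 in MDA-MB-231 and 16 each in OVCAR8 and SKOV3. Since these values chose the genes, the difference between the lines is given as a description and has no test.

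RNA was sequenced from the breast cancer lines MDA-MB-231 and HCC1954 and the ovarian cancer lines OVCAR8 and SKOV3. For every line there was 1 library in each of 3 conditions, namely control cells (EV), cells transfected with *SIVA-WT* and cells transfected with *SIVA-D160N*. SIVA is an adaptor protein that takes part in apoptosis signalling, and D160N is the amino acid change under study. The transfectants were stable polyclonal populations selected with hygromycin after lipid transfection of a linearized vector, and the labels call the EV cells parental and untreated while the study also calls them EV. All cells were grown in RPMI-1640 medium with serum. In every list of 3 values below, the order is EV, *SIVA-WT* and *SIVA-D160N*.

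A cancer cell line can lack the transcript of a gene that related lines express when both copies of the gene have been deleted, and neighbouring genes are then lost with it. It can also lack it when the promoter is silenced, which in tumors is often accompanied by methylation of CG dinucleotides in a CpG island, or when the line never used the gene. RNA counts alone do not separate these situations, and they were not told apart here. The best known deletion of this kind in cancer removes *CDKN2A*, which encodes cell cycle inhibitors on the short arm of chromosome 9, and often takes *MTAP* beside it. *GSTP1* and *DAPK1* are textbook examples of genes silenced together with promoter methylation.

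The promoters of 6 of the genes are shown because the results turn on these genes or because they span the range of CG content. Each is the 250 bases before the annotated start, taken from RefSeq on GRCh38.p14 and written 5′ to 3′ on the gene's strand, with CG dinucleotides in capitals. *MTAP* lies at chr9:21802386-21802635 on the plus strand and *SLC19A1* at chr21:45563026-45563275 on the minus strand, both silent in MDA-MB-231. *GSTP1* lies at chr11:67583562-67583811 on the plus strand and *LDHB* at chr12:21657843-21658092 on the minus strand, both silent in HCC1954. *NEIL3* lies at chr4:177309624-177309873 on the plus strand and was silent in OVCAR8, and *ANKFY1* lies at chr17:4263980-4264229 on the minus strand and was silent in SKOV3. None of these 6 windows overlaps another annotated gene.
MTAP: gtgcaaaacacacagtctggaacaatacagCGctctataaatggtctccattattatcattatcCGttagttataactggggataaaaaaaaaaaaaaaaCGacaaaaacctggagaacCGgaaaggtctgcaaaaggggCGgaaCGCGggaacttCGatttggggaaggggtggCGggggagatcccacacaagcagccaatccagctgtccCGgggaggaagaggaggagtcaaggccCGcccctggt
SLC19A1: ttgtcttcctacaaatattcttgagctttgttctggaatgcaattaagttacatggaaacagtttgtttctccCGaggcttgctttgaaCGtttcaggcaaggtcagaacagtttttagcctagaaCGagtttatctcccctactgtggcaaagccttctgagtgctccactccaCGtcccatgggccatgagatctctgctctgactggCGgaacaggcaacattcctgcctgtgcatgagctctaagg
GSTP1: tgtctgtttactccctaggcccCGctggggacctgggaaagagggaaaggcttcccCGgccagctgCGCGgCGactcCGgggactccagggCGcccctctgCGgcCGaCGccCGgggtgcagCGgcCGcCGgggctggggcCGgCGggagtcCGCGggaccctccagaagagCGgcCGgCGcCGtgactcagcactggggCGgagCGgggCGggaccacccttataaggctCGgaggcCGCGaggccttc
LDHB: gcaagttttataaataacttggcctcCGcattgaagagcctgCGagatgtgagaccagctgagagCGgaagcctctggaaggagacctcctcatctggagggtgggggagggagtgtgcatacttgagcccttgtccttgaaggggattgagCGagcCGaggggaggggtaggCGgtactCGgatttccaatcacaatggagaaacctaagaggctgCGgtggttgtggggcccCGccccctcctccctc
NEIL3: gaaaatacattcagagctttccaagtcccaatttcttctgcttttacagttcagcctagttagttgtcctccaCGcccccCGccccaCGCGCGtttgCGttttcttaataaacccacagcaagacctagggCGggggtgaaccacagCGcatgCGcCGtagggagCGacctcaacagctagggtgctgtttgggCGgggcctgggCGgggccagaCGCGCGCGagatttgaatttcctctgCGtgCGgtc
ANKFY1: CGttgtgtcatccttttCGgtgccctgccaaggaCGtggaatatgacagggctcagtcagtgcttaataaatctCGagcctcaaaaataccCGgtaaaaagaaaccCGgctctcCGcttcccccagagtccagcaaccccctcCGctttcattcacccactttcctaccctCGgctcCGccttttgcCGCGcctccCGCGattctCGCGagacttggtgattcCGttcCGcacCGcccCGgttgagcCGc
The 6 windows held 11, 5, 28, 9, 19 and 21 CG dinucleotides in the order printed. The ratio of observed to expected CG over 250 bases before and 50 after the start was 0.72 for *MTAP*, 0.30 for *SLC19A1*, 0.88 for *GSTP1*, 0.55 for *LDHB*, 0.89 for *NEIL3* and 1.02 for *ANKFY1*. A promoter sequence was matched for 79 of the 100 genes. Their median ratio was 0.82 (quartiles 0.70 and 0.91), against 0.87 (0.75 and 0.97) for 7242 genes at 5 CPM or more in all 12 libraries and 0.77 (0.43 and 0.92) for all 16594 promoters. A ratio over 0.6, a usual mark of a CpG island, was found in 68 of the 79 promoters (86.1%), in 89.5% of those of the genes expressed in all libraries and in 67.4% of all promoters. The median of the silent genes was thus below that of genes expressed everywhere and above that of all promoters. The 4 lines gave medians of 0.85 for MDA-MB-231 (15 promoters), 0.79 for HCC1954 (37), 0.89 for OVCAR8 (14) and 0.80 for SKOV3 (13). The promoters of *INHBA* (0.07), *SLC19A1* and *GPR173* (0.30) had the lowest ratios, and those of *ZNF175* and *SORL1* (1.15) the highest. Each ratio uses a single annotated start per gene, and other starts were not examined. The *INHBA* window (chr7:41703091-41703340) lies inside the gene's annotated span, which ends at 41705406. These ratios therefore need not hold for other starts of the same gene.

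The libraries held 35791455 to 45890398 counts, so 3 counts corresponded to 0.0654 to 0.0838 CPM, a limit that covers counting error only. *SIVA1* checked the labels of control against transfected cells only, because its counts cannot tell *SIVA-WT* from *SIVA-D160N*. It had 1272, 3193 and 2807 counts in MDA-MB-231, 0, 1646 and 930 in HCC1954, 2419, 6723 and 6150 in OVCAR8 and 1985, 4741 and 4542 in SKOV3, and both transfectants were above EV in all 4 lines. In HCC1954 the EV library, the only one of that line without a transfected SIVA, had no *SIVA1* counts. Both transfectants were over the limit of 3 counts, so the gene was not among the 100. Counts from the construct and from the cells' own gene were not told apart, so its own expression in the HCC1954 transfectants is not known. In HCC1954 EV, without a transfected SIVA, the cells' own gene was undetected at this depth. Of markers of the lines, *KRT8* had 11704 counts or more in every library and *KRT18* 7691 or more. Other epithelial markers were not shared, as *KRT19* had at most 1 count in OVCAR8 and *EPCAM* at most 29 in SKOV3. The breast marker *GATA3* had 79 to 113 counts in MDA-MB-231, fewer than the 216 to 239 in OVCAR8. The mesenchymal marker *VIM* had 3984 to 10165 counts in HCC1954 and 111596 or more in the other lines. *CDH1* (E-cadherin) had 24338 to 35126 counts in HCC1954 and 20 or fewer elsewhere. *ERBB2* (HER2) had 200956 to 459499 counts in HCC1954 and SKOV3 against 2848 at most in the others, and *PAX8*, a marker of Müllerian epithelium, had 2335 to 10838 in OVCAR8 and SKOV3 against 155 at most in the breast lines. The defining markers of other cells were near 0 with exceptions, as *PTPRC* had at most 27 counts and *CD3E* at most 3, while the endothelial marker *PECAM1* reached 2616 counts in HCC1954 EV. In bulk RNA, fewer cells that express a gene and less RNA per cell cannot be told apart, but a gene with no counts was undetected in the whole population at this depth.

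**Figure D1:**
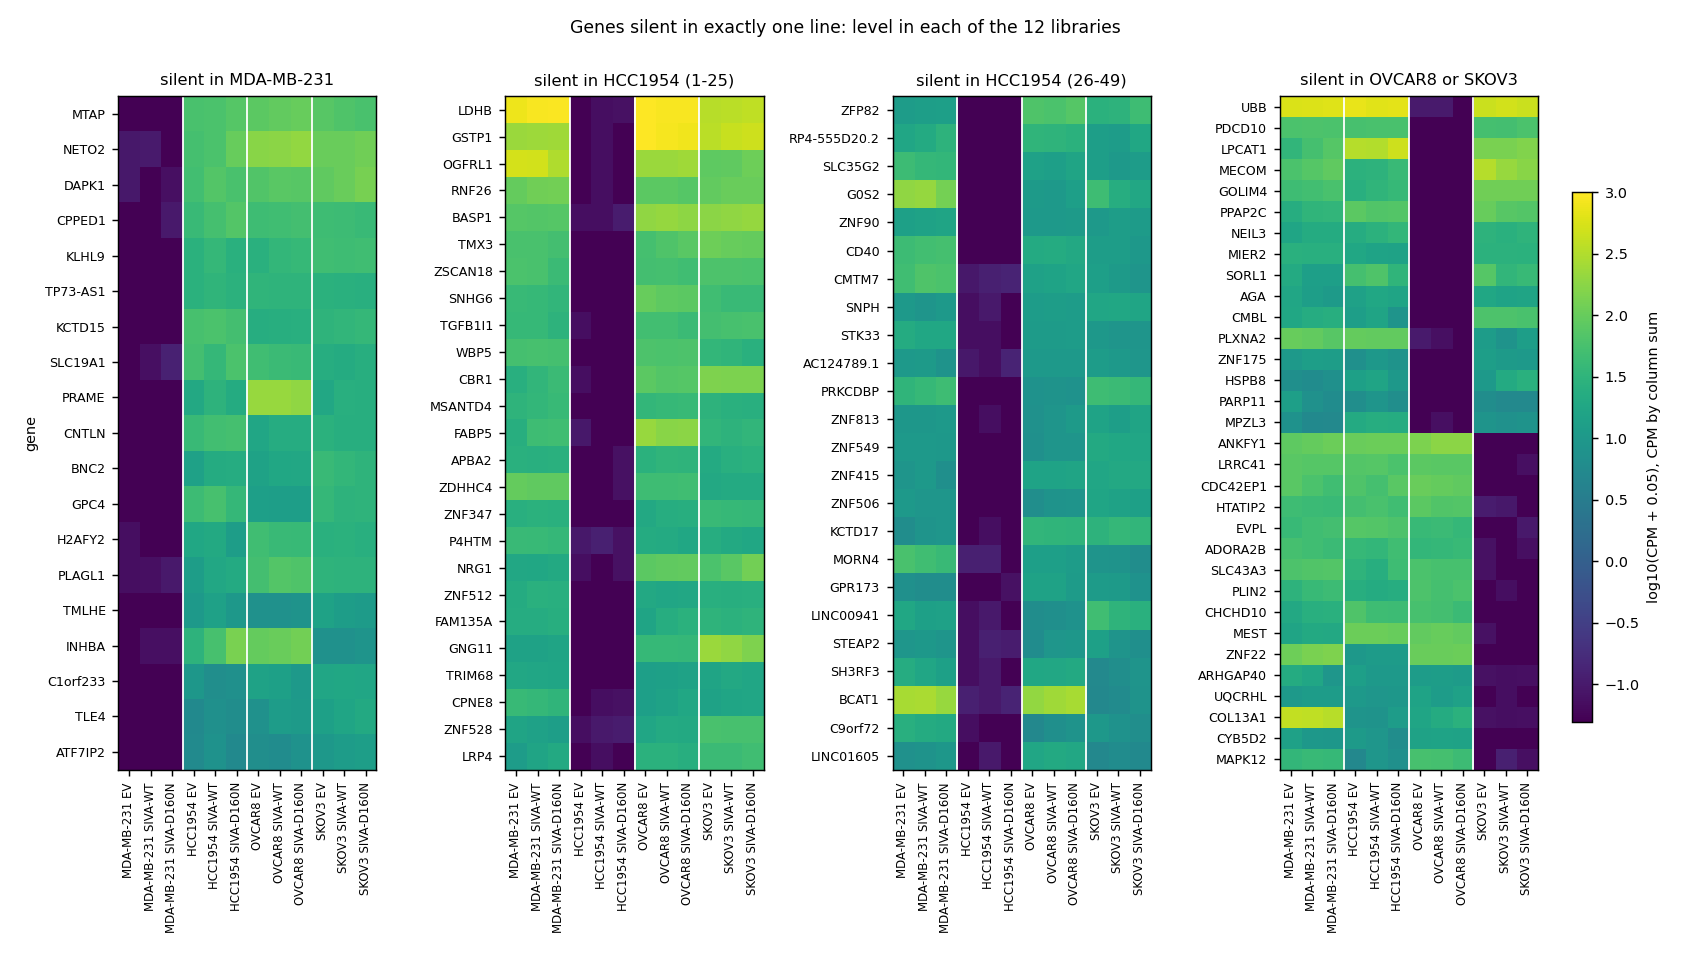
Level of each of the 100 genes (rows) in each of the 12 libraries (columns) as log10(CPM + 0.05), grouped by the line in which the gene was silent and ordered by the lowest level in the other lines. The dark blocks span all 3 libraries of 1 line, and 50 of the 100 genes had 0 counts there in all 3.

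HCC1954 had the most silent genes. Of the genes at 5 CPM or more in the 9 libraries of the other lines, 0.541% (49 of 9061) were silent in HCC1954, against 0.214% (19 of 8873) in MDA-MB-231, 0.180% (16 of 8900) in OVCAR8 and 0.181% (16 of 8855) in SKOV3. Protein-coding genes made up 94 of the 100. In their silent line 50 genes had no count in any library, comprising 12 of 19 in MDA-MB-231, 20 of 49 in HCC1954, 13 of 16 in OVCAR8 and 5 of 16 in SKOV3. The counts left over were few. Summed over its silent genes, a library had 5 to 9 counts in MDA-MB-231, 22 to 35 in HCC1954, 0 to 4 in OVCAR8 and 7 to 9 in SKOV3, which was at most 0.0271% of the mean summed level in the other lines. Between the 3 lines that expressed them, the genes were less uniform, as the ratio of the highest to the lowest line mean had a median of 2.26, was under 2 for 42 genes and over 10 for 6.

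Among the 19 genes silent in MDA-MB-231 were *MTAP* and *SLC19A1*, an enzyme and a carrier of one-carbon and methionine metabolism, and the kinase gene *DAPK1*. *MTAP* encodes the phosphorylase that recycles methylthioadenosine, a by-product of polyamine synthesis, to methionine. It had 0 counts in all 3 MDA-MB-231 libraries, and 58.8, 60.4 and 72 CPM in HCC1954, 83.4, 93.8 and 99.4 in OVCAR8 and 77.1, 64.4 and 58.1 in SKOV3. The lowest of the 9 values was at least 760 times the level of 3 counts in MDA-MB-231. *NETO2*, an accessory subunit of kainate receptors, had 2, 2 and 0 counts in MDA-MB-231, and 52.9, 60.6 and 98.7 CPM in HCC1954, 175, 181 and 199 in OVCAR8 and 106, 106 and 116 in SKOV3. *DAPK1*, a calmodulin-dependent kinase of cell death pathways, had 2, 0 and 1 counts in MDA-MB-231, and 49.1, 71.4 and 57.3 CPM in HCC1954, 69, 78.2 and 76.7 in OVCAR8 and 87.8, 106 and 129 in SKOV3. The 3 genes were thus well expressed in every other library, with *NETO2* highest in OVCAR8 and *DAPK1* highest in SKOV3.

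*CPPED1*, a phosphatase, had 0, 0 and 2 counts in MDA-MB-231, and 40.5, 53 and 70.4 CPM in HCC1954, 45.9, 48 and 52 in OVCAR8 and 45.4, 44.6 and 41.6 in SKOV3. *KLHL9*, a substrate adaptor of cullin ubiquitin ligases, had 0 counts in MDA-MB-231, and 28.3, 36.2 and 27.2 CPM in HCC1954, 26.7, 35.1 and 38.7 in OVCAR8 and 48.5, 46.6 and 47.6 in SKOV3. *TP73-AS1*, a non-coding RNA gene beside *TP73*, had 0 counts in MDA-MB-231, and 27.4, 32.5 and 29.4 CPM in HCC1954, 33.1, 31.8 and 31.7 in OVCAR8 and 27.6, 27.2 and 26.2 in SKOV3. The means of the expressing lines differed by less than 2 times for each of these 3, and for *TP73-AS1* all 9 values lay between 26.2 and 33.1 CPM. Because the strand setting of the counting is not known, the counts of *TP73-AS1* and of the non-coding genes named below are less certain where another gene overlaps them. The rest of the genes silent in MDA-MB-231 were *CNTLN*, *BNC2*, *KCTD15*, *PRAME*, *GPC4*, *PLAGL1*, *H2AFY2*, *TMLHE*, *INHBA*, *C1orf233*, *TLE4*, *ATF7IP2* and *SLC19A1*. They include a glypican (*GPC4*), a histone variant (macroH2A2, from *H2AFY2*), a corepressor (*TLE4*), the first enzyme of carnitine synthesis (*TMLHE*), the reduced folate carrier (*SLC19A1*) and the activin A subunit (*INHBA*). *INHBA* was the 1 gene of this line whose means differed more than 10 times between expressing lines, with 94.7 to 120 CPM in OVCAR8 and 7.31 to 8.38 in SKOV3. *PRAME*, a cancer-testis antigen, was at 192 to 221 CPM in OVCAR8 and 19 to 30.1 in HCC1954 and SKOV3.

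The 49 genes silent in HCC1954 included *LDHB* and *GSTP1*, an enzyme of lactate metabolism and one of detoxification. *LDHB* encodes the B subunit of lactate dehydrogenase. It had 0, 1 and 1 counts in HCC1954, and 792, 902 and 944 CPM in MDA-MB-231, 1025, 891 and 909 in OVCAR8 and 347, 364 and 389 in SKOV3. *GSTP1*, a glutathione transferase that conjugates electrophiles, had 0, 1 and 0 counts in HCC1954, and 229, 237 and 242 CPM in MDA-MB-231, 1008, 887 and 823 in OVCAR8 and 361, 441 and 462 in SKOV3. The HCC1954 libraries thus held almost no reads of 2 genes that were abundant elsewhere. *OGFRL1* had 0, 1 and 0 counts in HCC1954, and 532, 501 and 306 CPM in MDA-MB-231, 224, 229 and 244 in OVCAR8 and 85.8, 88.3 and 112 in SKOV3. *RNF26*, a ubiquitin ligase of the endoplasmic reticulum, had 0, 1 and 0 counts in HCC1954, and 95, 116 and 122 CPM in MDA-MB-231, 83.6, 83.6 and 74.6 in OVCAR8 and 92.5, 104 and 102 in SKOV3. *BASP1*, a membrane-attached signalling protein, had 1, 1 and 2 counts in HCC1954, and 72.4, 71.5 and 72.9 CPM in MDA-MB-231, 195, 205 and 185 in OVCAR8 and 176, 194 and 205 in SKOV3. *TMX3*, a thioredoxin-like protein of the endoplasmic reticulum, had 0 counts in HCC1954, and 58.4, 59.2 and 52.2 CPM in MDA-MB-231, 54.8, 66.5 and 78.1 in OVCAR8 and 114, 101 and 95.8 in SKOV3. The line means of *RNF26* and *TMX3* differed by less than 2 times, while *OGFRL1* was highest in MDA-MB-231 and lowest in SKOV3.

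Metabolic enzymes and transporters formed the first group of the other genes silent in HCC1954. These were *BCAT1* (cytosolic branched-chain aminotransferase), *CBR1* (carbonyl reductase), *FABP5* (fatty acid binding), *G0S2* (inhibitor of triglyceride lipase), *STEAP2* (metalloreductase), *P4HTM*, *ZDHHC4* and *SLC35G2*. *BCAT1* differed most between expressing lines, with 202 to 280 CPM in MDA-MB-231 and OVCAR8 and 5.09 to 8.14 in SKOV3, and *G0S2* and *GNG11* also differed more than 10 times. Signalling genes were *NRG1* (neuregulin, a ligand of the ERBB family), *CD40* (a TNF receptor family member), *GNG11* (a G protein gamma subunit), *LRP4*, *GPR173*, *STK33*, *CMTM7* and *SH3RF3*. *NRG1* had 1, 0 and 1 counts in HCC1954, a line with high *ERBB2*, and 19, 18 and 20.1 CPM in MDA-MB-231, 81.9, 90.8 and 94 in OVCAR8 and 61.6, 80.1 and 122 in SKOV3. Genes of adhesion, membranes and neuronal adaptors were *TGFB1I1*, *PRKCDBP* (cavin-3), *APBA2*, *SNPH*, *CPNE8* and *KCTD17*. The remaining genes were *FAM135A*, *WBP5*, *C9orf72*, *TRIM68*, *MSANTD4*, *MORN4*, the non-coding genes *SNHG6*, *LINC00941* and *LINC01605*, the genes *RP4-555D20.2* and *AC124789.1*, which could not be placed by their symbols, and 10 zinc finger genes.

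Zinc finger genes as picked by symbol, most of which encode DNA-binding repressors, made up 12 of the 100. Of 346 zinc finger genes (symbols starting with *ZNF*, *ZSCAN*, *ZKSCAN* or *ZFP*) that were at 5 CPM or more in all 9 libraries of some set of 3 lines, the 12 were 3.47%, against 100 of 9763 genes (1.02%). HCC1954 held 10 of its 305 (3.28%), MDA-MB-231 0 of 281, OVCAR8 1 of 288 (*ZNF175*) and SKOV3 1 of 276 (*ZNF22*). These counts cover those symbols only, so *BNC2*, a zinc finger protein silent in MDA-MB-231, is not among them. Chromosome 19 carried 9 of the 10, which was 7.20% of the 125 zinc finger genes there that could have been found in HCC1954. They were *ZNF506*, *ZNF90*, *ZFP82*, *ZNF528*, *ZNF415*, *ZNF347*, *ZNF813*, *ZNF549* and *ZSCAN18*, and the tenth was *ZNF512* on chromosome 2. *ZSCAN18* had 0 counts in HCC1954, and 60.9, 58.1 and 43.4 CPM in MDA-MB-231, 52.4, 54.7 and 47.8 in OVCAR8 and 63.8, 63.3 and 61 in SKOV3. *ZNF347* had 0 counts in HCC1954, and 26.2, 27.4 and 26.8 CPM in MDA-MB-231, 19.7, 23.5 and 24.7 in OVCAR8 and 40.5, 38.5 and 37.2 in SKOV3. *ZNF528* had 1, 2 and 2 counts in HCC1954, and 16, 14.5 and 12.9 CPM in MDA-MB-231, 17.8, 21 and 20.6 in OVCAR8 and 57.2, 56 and 55.8 in SKOV3. Clusters on chromosome 19 hold zinc finger genes that arose by duplication, so reads may be shared between copies and their single counts are less certain. No test was made of the count because the family was chosen with these results known.

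The 16 genes silent in OVCAR8 were led by *UBB*, 1 of the genes that encode polyubiquitin. *UBB* had 2, 2 and 0 counts in OVCAR8, and 567, 591 and 605 CPM in MDA-MB-231, 720, 650 and 674 in HCC1954 and 457, 518 and 458 in SKOV3. All 9 values were 457 CPM or more. *PDCD10*, a scaffold protein of vascular signalling, had 0 counts in OVCAR8, and 60.6, 62.7 and 60.7 CPM in MDA-MB-231, 55.4, 57.6 and 59.2 in HCC1954 and 53.2, 51.9 and 59.9 in SKOV3. Its 9 values spanned 51.9 to 62.7 CPM. *LPCAT1*, which remodels phosphatidylcholine, had 0 counts in OVCAR8, and 34, 54.4 and 73.3 CPM in MDA-MB-231, 334, 325 and 477 in HCC1954 and 138, 135 and 156 in SKOV3. It was highest in HCC1954 and lowest in MDA-MB-231. *MECOM*, a transcription factor gene often amplified in ovarian cancer, had 0 counts in OVCAR8, and 60, 72.6 and 89.6 CPM in MDA-MB-231, 28.8, 30.6 and 41.1 in HCC1954 and 333, 218 and 172 in SKOV3. *GOLIM4*, a Golgi membrane protein, had 0 counts in OVCAR8, and 45.6, 50 and 57.3 CPM in MDA-MB-231, 26.1, 32.5 and 37.9 in HCC1954 and 119, 118 and 117 in SKOV3. *PPAP2C*, a lipid phosphate phosphatase, had 0 counts in OVCAR8, and 23.5, 33 and 33.2 CPM in MDA-MB-231, 83.3, 69.2 and 69.3 in HCC1954 and 99, 77.4 and 71.7 in SKOV3. *MECOM* and *GOLIM4* were highest in SKOV3, while for *PPAP2C* the SKOV3 and HCC1954 values overlapped.

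The other genes silent in OVCAR8 were *NEIL3* (a DNA glycosylase), *AGA* (lysosomal aspartylglucosaminidase), *MIER2*, *SORL1* (a sorting receptor), *PLXNA2* (a semaphorin receptor), *HSPB8* (a small heat shock protein), *PARP11*, *CMBL*, *MPZL3* and *ZNF175*. None of the 16 differed more than 10 times between the lines that expressed them. OVCAR8 had the fewest leftover counts of the 4 lines, with 0 counts over all 16 genes in the *SIVA-D160N* library and 4 in each of the others.

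The 16 genes silent in SKOV3 were led by *ANKFY1*, an endosomal protein that binds RAB5. It had 0 counts in SKOV3, and 86.4, 94.5 and 109 CPM in MDA-MB-231, 102, 107 and 109 in HCC1954 and 142, 178 and 176 in OVCAR8. The lowest of these was at least 1031 times the level of 3 counts in SKOV3. *LRRC41*, a substrate adaptor of a ubiquitin ligase, had 0, 0 and 1 counts in SKOV3, and 78.4, 74.6 and 72.8 CPM in MDA-MB-231, 70.7, 74.7 and 59.8 in HCC1954 and 81.2, 79.1 and 78.5 in OVCAR8. *CDC42EP1*, an effector of the GTPase CDC42, had 0 counts in SKOV3, and 78.4, 59.4 and 47.6 CPM in MDA-MB-231, 66.5, 53.9 and 79.8 in HCC1954 and 104, 97.3 and 87.4 in OVCAR8. The first was highest in OVCAR8, while *LRRC41* was nearly level across the other lines. *HTATIP2* had 2, 2 and 0 counts in SKOV3, and 45.3, 42.8 and 41.6 CPM in MDA-MB-231, 51.9, 58 and 48.1 in HCC1954 and 82.9, 68.8 and 71.8 in OVCAR8. *EVPL* (envoplakin, of the epithelial envelope) had 0, 0 and 2 counts in SKOV3, and 39.6, 48.7 and 51.8 CPM in MDA-MB-231, 73.3, 71.2 and 62.5 in HCC1954 and 39.6, 42.6 and 36.6 in OVCAR8. *ADORA2B*, an adenosine receptor, had 1, 0 and 1 counts in SKOV3, and 53.6, 48.4 and 43.3 CPM in MDA-MB-231, 37.8, 35.3 and 48 in HCC1954 and 35.2, 36.2 and 40.2 in OVCAR8. Each of these 3 was at 35.2 CPM or more in all 9 libraries. The others were *SLC43A3*, *PLIN2* (a coat protein of lipid droplets), *CHCHD10* (a mitochondrial protein), *MEST* (an imprinted gene), *ZNF22*, *ARHGAP40*, *UQCRHL*, *COL13A1*, *CYB5D2* and *MAPK12* (a p38 kinase). *COL13A1*, a transmembrane collagen, differed most between expressing lines, with 350 to 407 CPM in MDA-MB-231 and 8.13 to 28.4 in HCC1954 and OVCAR8, and *ZNF22* also differed more than 10 times.

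Several silent genes of a line lay next to each other. Of 1492 pairs of genes silent in the same line, 14 (0.938%) had starts within 1 Mb on 1 chromosome, against 4 of 3261 pairs (0.123%) from different lines, and no test was made of this difference. The 14 pairs held 22 genes, of which HCC1954 lacked 10, OVCAR8 6, MDA-MB-231 4 and SKOV3 2. Pairs that share a gene are not independent, and 7 of the 14 joined zinc finger genes of chromosome 19 in HCC1954. In 7 of the 14 pairs no gene at 5 CPM or more in the other lines lay in between. Positions were known for 98 of the genes.

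In MDA-MB-231 both pairs lay on the short arm of chromosome 9. *KLHL9* (chr9:21329665-21335404) and *MTAP* (chr9:21802636-21941115) start 473 kb apart. Between them, *MIR31HG* and *IFNE* also had 0 counts in MDA-MB-231, though neither was high elsewhere. Beyond *MTAP*, *CDKN2A* had 0 counts in all 3 MDA-MB-231 libraries, against 69, 62.3 and 48.6 CPM in HCC1954 and 141, 134 and 128 in OVCAR8. *CDKN2B*, which encodes a related inhibitor, was at 0 in the same libraries, against 57.3, 82 and 42.2 CPM in HCC1954 and 6.33, 7.93 and 6.65 in OVCAR8. Both also had 0 counts in all 3 SKOV3 libraries, so that 2 lines lacked them and they could not be among the 100, while *MTAP* was present in SKOV3. On the other side, *FOCAD* was reduced, with 4.60, 3.01 and 3.43 CPM in MDA-MB-231 against 34.5 to 53.2 elsewhere (log2 fold change -3.53, FDR 8.61e-09, edgeR). *MLLT3*, next in line, was at 13 CPM (median of 3 libraries) in MDA-MB-231. The stretch without counts therefore began after *FOCAD* and reached at least *CDKN2B*.

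The second pair of this arm was *BNC2* (chr9:16409503-16870670) and *CNTLN* (chr9:17135040-17528634), which start 726 kb apart. *BNC2*, a zinc finger protein, had 0 counts in MDA-MB-231, and 14.6, 22.1 and 22.6 CPM in HCC1954, 15, 18.2 and 18.7 in OVCAR8 and 41.7, 34.5 and 31.2 in SKOV3. *CNTLN*, a centriole protein, had 0 counts in MDA-MB-231, and 40.5, 50 and 53.6 CPM in HCC1954, 17.7, 22.6 and 23.4 in OVCAR8 and 28.3, 24.4 and 24.8 in SKOV3. *BNC2* was highest in SKOV3 and *CNTLN* in HCC1954. The pairs were separated by genes with counts, since *ADAMTSL1* between them had a median of 109 CPM in MDA-MB-231, its highest level in the 4 lines. On the side away from *MTAP*, *PSIP1* was at 145 CPM. Chromosome 9 carried 6 of the 19 genes silent in this line, the others being *TLE4* and *DAPK1* on the long arm.

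**Figure D2:**
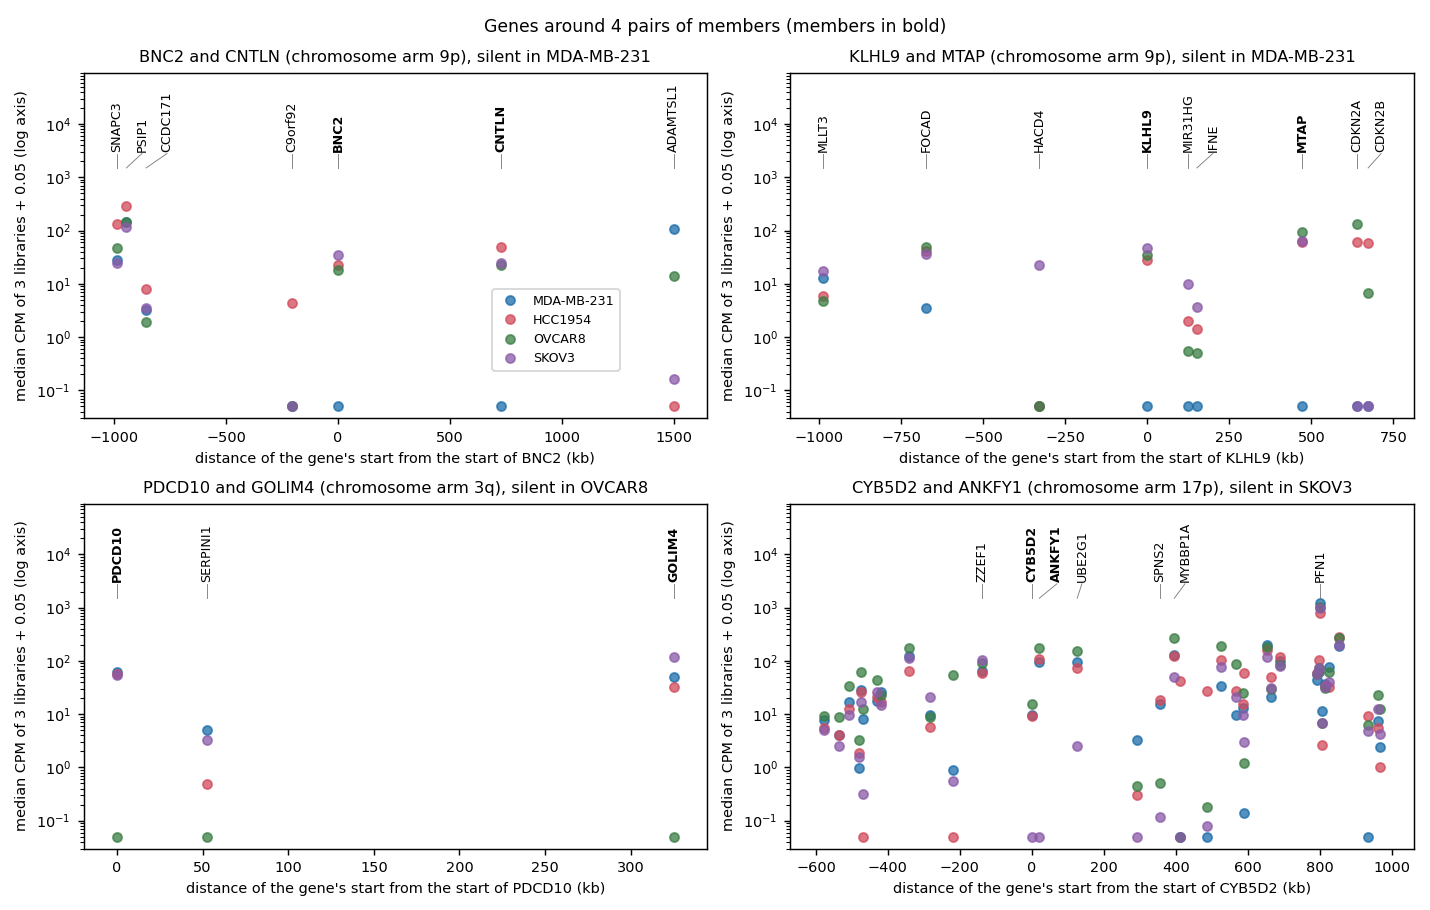
Median CPM of 3 libraries plus 0.05 (log axis) of genes around 4 pairs of silent genes, against the distance of each gene's start from that of the first silent gene in kb, with 1 colour per line and the silent genes in bold. Genes with a median under 3 CPM in all lines are left out. *KLHL9*, *MTAP*, *CDKN2A* and *CDKN2B* share the floor in MDA-MB-231, and *SERPINI1* lies at the floor between *PDCD10* and *GOLIM4* in OVCAR8.

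OVCAR8 had 3 pairs on 3 chromosomes. *PDCD10* (chr3:167683298-167734892) and *GOLIM4* (chr3:168008689-168095924) start 325 kb apart on the long arm of chromosome 3, and *SERPINI1* between them had 0 counts in OVCAR8, against 5.01, 5.04 and 5.91 CPM in MDA-MB-231. *MECOM* (chr3:169083507-169663712), further along that arm, was silent in the same line. Its start lies just beyond the limit of 1 Mb from that of *GOLIM4*, so the 2 were not counted as a pair. The genes between *GOLIM4* and *MECOM* are not reported here. *NEIL3* (chr4:177309874-177371268) and *AGA* (chr4:177430774-177442437) start 121 kb apart on the long arm of chromosome 4. *NEIL3* had 0 counts in OVCAR8, and 16.9, 22.4 and 22.4 CPM in MDA-MB-231, 23.2, 28.9 and 35.7 in HCC1954 and 29.6, 26.9 and 30.8 in SKOV3. *AGA* had 0 counts in OVCAR8, and 17.4, 12.8 and 11.1 CPM in MDA-MB-231, 14.4, 18.2 and 16.5 in HCC1954 and 18.4, 15.8 and 16 in SKOV3. *VEGFC*, the nearest gene expressed elsewhere on that side, was lower in OVCAR8 without being silent (log2 fold change -3.09, FDR 1.03e-06). *PPAP2C* (chr19:281043-291403) and *MIER2* (chr19:305573-344796) start 24.5 kb apart near the end of the short arm of chromosome 19. *MIER2*, a protein related to a transcriptional repressor, had 0 counts in OVCAR8, and 26.4, 25.4 and 25.6 CPM in MDA-MB-231, 18.1, 15.3 and 14.9 in HCC1954 and 28.8, 28.8 and 27.4 in SKOV3. The next expressed genes inward, *CDC34* and *BSG*, were at 74.3 and 521 CPM (medians) in OVCAR8, so the silence did not extend to them.

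In SKOV3 the pair was *CYB5D2* (chr17:4143168-4157701) and *ANKFY1* (chr17:4163821-4263979), whose starts lie 20.7 kb apart on the short arm of chromosome 17. *CYB5D2*, a heme-binding protein, had 0 counts in SKOV3, and 14.2, 9.68 and 9.51 CPM in MDA-MB-231, 11.1, 9.09 and 6.39 in HCC1954 and 14.9, 15.3 and 15.2 in OVCAR8. *UBE2G1*, a ubiquitin-conjugating enzyme and the next gene, had 59, 109 and 134 counts in SKOV3, or 1.65, 2.48 and 3.29 CPM, against 62 to 158 elsewhere (log2 fold change -5.40, FDR 1.26e-09). *ZZEF1*, on the other side, was at a median of 102 CPM in SKOV3, above the other lines.

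A further set of neighbours in SKOV3 involved a near-identical copy. *LRRC41* lies beside *UQCRH*, which encodes a hinge subunit of respiratory complex III. *UQCRH* had 8, 13 and 12 counts in SKOV3, over the limit of 3, and 177 to 322 CPM in the other 9 libraries (log2 fold change -9.77, FDR 1.83e-11). *UQCRHL*, a retrocopy of it elsewhere on chromosome 1 with 96.7% identity over 91 residues, had 0, 1 and 0 counts in SKOV3, and 10.5, 12.1 and 12 CPM in MDA-MB-231, 10.2, 9.02 and 9.49 in HCC1954 and 15.5, 12.1 and 14.4 in OVCAR8. In those 9 libraries, the counts of *UQCRHL* were 4.64% to 5.31% of those of *UQCRH*, so the 2 moved together. Whether the counts given to *UQCRHL* came from its own transcripts was not tested, and it is uncertain as a separate silent gene.

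HCC1954 had 8 close pairs, 7 of them between zinc finger genes of chromosome 19. *ZNF415* (chr19:53107879-53132910) and *ZNF347* (chr19:53134935-53159053) are next to each other, with *ZNF528* on one side and *ZNF813* on the other, each within 1 Mb of *ZNF415*. They did not form an unbroken stretch, since *ZNF160*, between *ZNF528* and *ZNF415*, was at 14.9, 16.7 and 12.5 CPM in HCC1954. The other lines expressed 10 genes in that interval. Among these, *ZNF701*, *ZNF83* and *ZNF320* were called lower in HCC1954. *ZNF415* had 0 counts in HCC1954, and 8.72, 10.3 and 6.84 CPM in MDA-MB-231, 15.3, 15.8 and 16.1 in OVCAR8 and 17.5, 19.5 and 19.3 in SKOV3. *ZNF813* had 0, 1 and 0 counts in HCC1954, and 9.39, 9.48 and 10.00 CPM in MDA-MB-231, 7.56, 8.57 and 11.1 in OVCAR8 and 15.3, 12.7 and 15.9 in SKOV3. The pair *ZNF506* and *ZNF90*, 285 kb apart, was separated by *ZNF253* and *ZNF93*, which HCC1954 expressed at medians of 6.30 and 5.95 CPM. *ZNF506* had 0 counts in HCC1954, and 10.4, 9.15 and 8.87 CPM in MDA-MB-231, 6.75, 7.93 and 8.41 in OVCAR8 and 16.6, 15.2 and 14.1 in SKOV3. *ZNF90* had 0 counts in HCC1954, and 13.7, 15 and 16.5 CPM in MDA-MB-231, 10.7, 10.5 and 10.8 in OVCAR8 and 10.3, 12.4 and 11.4 in SKOV3. *ZNF549* and *ZSCAN18*, 556 kb apart, had 10 genes between them that the other lines expressed, whose levels in HCC1954 are not given here. *ZNF549* had 0 counts in HCC1954, and 10.2, 10 and 9.80 CPM in MDA-MB-231, 7.14, 8.65 and 8.72 in OVCAR8 and 20.8, 18.5 and 17.8 in SKOV3. The last pair was *FAM135A* (chr6:70413508-70561174) and *OGFRL1* (chr6:71288811-71309059) on chromosome 6. *FAM135A* had 0 counts in HCC1954, and 22.7, 22.6 and 24.6 CPM in MDA-MB-231, 16.5, 24 and 27.5 in OVCAR8 and 31.8, 29.5 and 31.1 in SKOV3. Between these, *SMAP1* was at 36.4, 35.3 and 35.3 CPM and *SDHAF4* at 8.24, 8.88 and 6.20 CPM in HCC1954. Every HCC1954 pair apart from *ZNF415* and *ZNF347* thus had a gene in between that the other lines expressed.

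The genes next to the silent ones were compared between lines, with the silent genes themselves left out. For each silent gene, up to 5 genes on each side within 1 Mb that were at 5 CPM or more in the other 9 libraries were taken, and each line was compared with the mean of the others by edgeR's quasi-likelihood test (FDR under 0.05 and log2 fold change of at most -1.5). In SKOV3, 14 of 115 neighbours were lower (12.2%), against 4.17% of all 8855 genes tested the same way. In OVCAR8, 6 of 65 were lower (9.23%), against 4.82%. In HCC1954, 19 of 279 were lower (6.81%), against 5.88%, and in MDA-MB-231, 4 of 87 (4.60%), against 3.53%, so that in these 2 breast lines the share was near that of all genes. Neighbours and background genes alike had to be at 5 CPM or more in the other 9 libraries, which is part of the rule. That limit favours a lower level in the tested line, so the FDR of any single neighbour, here or above, is a description. The background counts include the silent genes themselves. The 3 libraries of a line share that line, so these p-values cover the spread between those libraries and not between tumors.

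The neighbours lower in SKOV3 lay next to 8 of its 16 silent genes. Around *CDC42EP1* on chromosome 22 they were *RAC2* (log2 fold change -7.91, FDR 3.62e-10), *SH3BP1* (log2 fold change -5.92, FDR 3.03e-10) and *H1F0* (log2 fold change -8.45, FDR 3.04e-10), with *TST* and *IFT27* reduced less. *RAC2*, a small GTPase, had 0.196, 0.387 and 0.270 CPM in SKOV3 and 26 to 206 elsewhere. *H1F0*, a linker histone, had 0.894, 0.342 and 0.541 CPM in SKOV3 and 144 to 423 elsewhere. Further lower neighbours were *FBLIM1* and *ARHGEF19* by *UQCRHL*, *AIFM2* and *TYSND1* by *COL13A1*, *TGM2* by *ARHGAP40*, *UBALD2* by *EVPL*, and *UQCRH*, *UBE2G1* and *MYBBP1A* by the genes named above. In OVCAR8, *SC5D*, an enzyme of cholesterol synthesis beside *SORL1*, had 1.65, 1.29 and 0.932 CPM in OVCAR8 and 38.8 to 57.6 elsewhere (log2 fold change -5.19, FDR 1.45e-09). *CD46*, *CD55*, *YOD1* and *PFKFB2* near *PLXNA2* had log2 fold changes of -2.37 to -1.78.

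In HCC1954, *TFPI2*, a protease inhibitor beside *GNG11*, was at 1.11, 1.08 and 2.55 CPM against 14.1 to 614 elsewhere (log2 fold change -6.40, FDR 7.40e-09). *ZNF264* was at 0.0926, 0.117 and 0.165 CPM against 12.9 to 36.4 (log2 fold change -7.30, FDR 7.82e-11). Of its 19 lower neighbours, 8 were zinc finger genes, the others being *ZNF772*, *ZNF544*, *ZNF701*, *ZNF83*, *ZNF320*, *ZNF525* and *ZNF566*. The rest included *C2CD5*, *WRN*, *CDK14*, *DNHD1*, *TMEM136*, *CAPRIN2*, *DENND5B*, *MYBL1* and *PROSC*. In MDA-MB-231 the lower neighbours were *FOCAD*, *LRP3* by *KCTD15*, *COL18A1* by *SLC19A1* and *CDK20* by *DAPK1*.

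**Figure D3:**
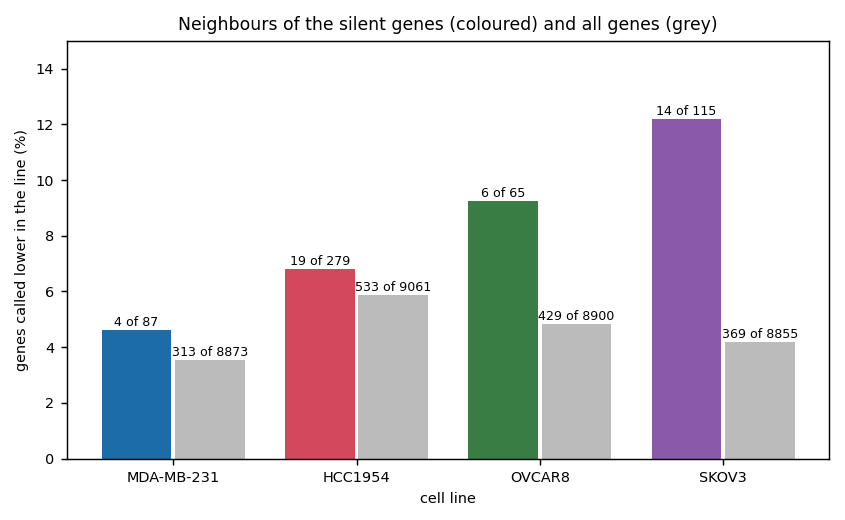
Percent of genes called lower in each line, for the neighbours of its silent genes (coloured bars) and for all genes at 5 CPM or more in the other 9 libraries (grey bars), with the counts above each bar. The gap is widest in SKOV3 (12.2% against 4.17%) and narrow in both breast lines.

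Protein relatives of the silent genes were looked up. Of 93 silent genes with a translated protein, 70 had a relative that aligned over at least 50% of the protein, and 40 of these relatives were at 5 CPM or more in all 3 libraries of the silent line. For scale, 10243 to 10615 genes of any kind reached this level in all 3 libraries of a line, and 18980 proteins were compared. The share among the compared proteins was not computed, so the 40 are a description and no sign of an unusual level. *LDHA*, with 75.6% identity to *LDHB*, was at 799, 805 and 1203 CPM in HCC1954, against 1104 to 9487 elsewhere. The *LDHA* level in HCC1954 overlapped the low end of the other lines.

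In 10 cases, the relative was higher in the silent line than in all 9 other libraries. *CBR3*, with 71.8% identity to *CBR1*, was at 25.4, 16.3 and 18.9 CPM in HCC1954 against 1.57 to 6.05 elsewhere. *ASRGL1*, an asparaginase with 27.8% identity to *AGA*, was at 43.6, 38.4 and 39.7 CPM in OVCAR8 against 1.02 to 7.06. *BCAT2*, the mitochondrial aminotransferase, was at 67.1 to 81.2 CPM in HCC1954 against 34.3 to 52, and *PLIN3*, the relative of *PLIN2*, at 238 to 257 CPM in SKOV3 against 143 to 187. *PRDM16*, the relative of *MECOM*, was at 7.45 to 9.04 CPM in OVCAR8 and at most 0.0694 elsewhere. In 14 cases the relative was lower than in all the others, among them *MAPK13* (4.0, 3.14 and 2.43 CPM in SKOV3 against 14.4 to 165, relative of *MAPK12*), *LPCAT2* (0 counts in OVCAR8, relative of *LPCAT1*) and *TLE1* (24.6 to 33.7 CPM in MDA-MB-231 against 42.6 to 178, relative of *TLE4*). The relative of *ZNF415* was *ZNF347*, itself silent in HCC1954. Over all 18980 genes with a compared protein, 14.4% in HCC1954, 13.8% in SKOV3, 12.8% in OVCAR8 and 10.4% in MDA-MB-231 were higher than in every library of the other lines. The shares that were lower were 11.8%, 9.50%, 10.2% and 9.16% in the same order. Of the 25 relatives with 60% identity or more, 1 was higher (*CBR3*) and 9 were lower. Just under that limit, *BCAT2* (58.6%), *STEAP3* (56.8%) and *PRDM16* (51.2%) were higher, and *ZNF347* (58.5%) and *CHCHD2* (53.3%) were lower. The split thus depends on the identity limit, which was not varied. The 9 included *UQCRH*, *TLE1*, *MAPK13*, *PXN* (relative of *TGFB1I1*) and *KCTD5* (relative of *KCTD17*). No test was made of these counts.

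**Figure D4:**
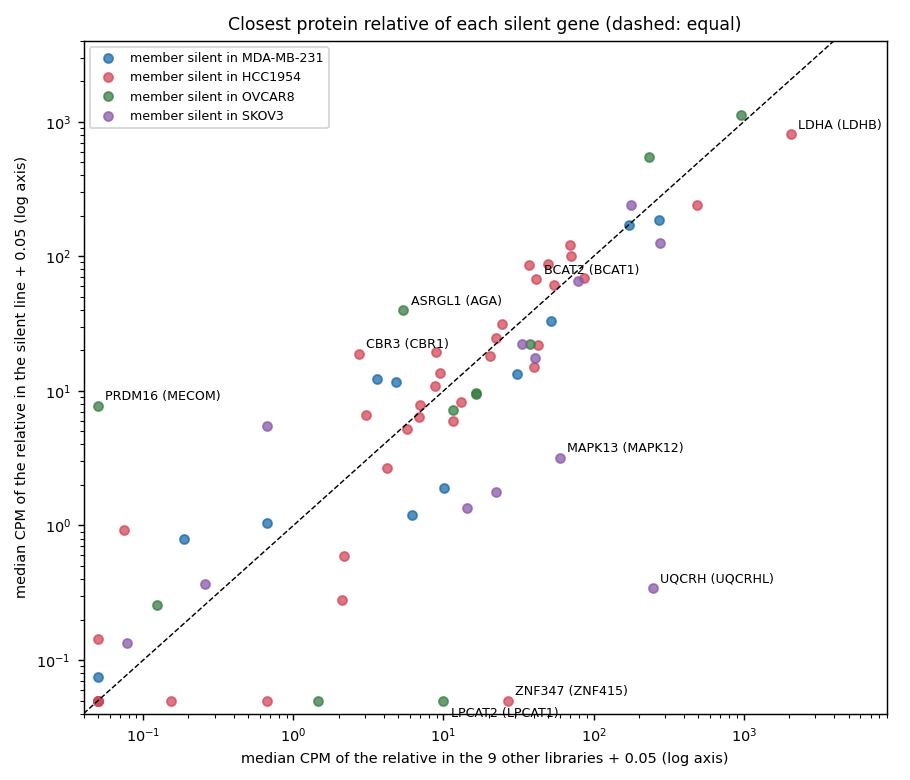
Median level of the closest protein relative of each silent gene in the silent line (vertical, log axis) against its median in the other 9 libraries (horizontal, log axis), both as CPM + 0.05, 1 point per silent gene. *CBR3*, *ASRGL1* and *PRDM16* lie above the dashed line of equal levels, and *UQCRH* and *MAPK13* far below it.

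In the methionine salvage pathway and its partners, *MTAP* was the only one of 13 genes silent in a single line. The other 12 were all at 22.3 CPM or more in MDA-MB-231, where *MRI1*, the next enzyme after *MTAP*, was the lowest, and *PRMT5*, the arginine methyltransferase that the *MTAP* substrate inhibits, was at 345 to 383 CPM. *MRI1* itself had 1, 7 and 4 counts in OVCAR8, just over the limit. Of genes often lost by homozygous deletion in cancer, 1 of the 13 that could have been found was silent (*MTAP*). Of those often silenced with promoter methylation, 2 of 11 were (*GSTP1* and *DAPK1*). None of 7 epithelial junction genes that could have been found was. Over all genes that could have been found, 100 of 9763 (1.02%) were silent. With lists this short, a single gene or none says little beside that share. *MTAP* is in more than 1 of the lists, and no test was made of these counts.

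Some genes lay just past the limits. *DLC1*, a GTPase activating protein, was left out of the HCC1954 set by 1 count (1, 4 and 0 counts) although it was at 165 CPM or more elsewhere, and *CAMK1* (highest count 4, lowest CPM elsewhere 6.98) by the same margin. *ENOSF1* and *COL5A1* had 4 counts at most in OVCAR8, *HOXB2* and *HLA-F* in MDA-MB-231 and *CYB5A* and *AFAP1-AS1* in SKOV3. A highest count of 4 to 10 was found for 18 genes in HCC1954, 10 in SKOV3, 9 in OVCAR8 and 8 in MDA-MB-231. The CPM limit left out *TP53I11* (lowest 4.94 CPM) and *KCNK5* (4.57) for MDA-MB-231, *NNT* (4.83) and *RGL3* (4.52) for HCC1954, *ZNF69* (4.49) and *LXN* (3.95) for OVCAR8 and *NKX2-1* (4.79) and *ACAA2* (4.58) for SKOV3. Just inside were *SLC19A1* and *MAPK12* with 3 counts in 1 library, *BCAT1* and *CMTM7* with 3 counts in 2 libraries, and *LINC01605* (5.06 CPM), *C9orf72* (5.07), *MAPK12* (5.07), *MPZL3* (5.17), *PARP11* (5.19) and *ATF7IP2* (5.35).

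The rule treated the 3 conditions alike, so the effect of the transfected SIVA on these genes could be tested. The 4 lines were the replicates of a condition (n = 4), though only the 3 lines that expressed a gene carried information on it. With a term for the line, edgeR's quasi-likelihood test called none of the 100 genes in any contrast (FDR under 0.05 with a log2 fold change of 1.5 or more in either direction), and DESeq2 called none. Over all 17211 genes tested, 1 was called when *SIVA-D160N* was compared with EV (0.00581%), 0 when it was compared with *SIVA-WT* (0%) and 0 for *SIVA-WT* vs EV (0%). The study reported many more genes for *SIVA-D160N* vs EV with edgeR and the same stated limits, *INHBA* among them. It does not state the terms of its model, and the reason for the difference was not tested. At an unadjusted p under 0.05, 14 of the 100 genes differed in *SIVA-D160N* vs EV (14%; 9 higher and 5 lower), against 14.2% of all genes. In *SIVA-D160N* vs *SIVA-WT* 2 did (2.0%), against 6.88%, and in *SIVA-WT* vs EV 2 did (2.0%), against 2.54%. The share was thus near or under that of all genes in each contrast. The 3 contrasts share libraries, since EV and each transfectant enter more than 1 of them.

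The lowest FDR in *SIVA-D160N* vs EV was 0.196, for *LPCAT1*, with a fitted log2 fold change of 0.60 ± 0.16 (SE), which was not called. Its *SIVA-D160N* library was the highest of the 3 in each line that expressed it. *INHBA*, the activin A subunit, had 29.9, 57 and 134 CPM in HCC1954, 94.7, 106 and 120 in OVCAR8 and 7.54, 7.31 and 8.38 in SKOV3, with a fitted log2 fold change of 0.93 ± 0.30 (SE) in the same contrast (FDR 0.227). *SORL1* had 21.4, 13.4 and 13.3 CPM in MDA-MB-231, 54.2, 64.9 and 32.6 in HCC1954 and 74.2, 33.3 and 40.1 in SKOV3, and a fitted log2 fold change of -0.76 ± 0.23 (SE) (FDR 0.223). Neither passed the test, and the 3 lines that expressed each gene differed in size of the change.

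Within a line, where there is 1 library per condition and so no replicate check, few of the genes differed by 2 times or more. Between *SIVA-D160N* and EV, the ratio of CPM was 4.46 for *INHBA* in HCC1954. In MDA-MB-231 it was 2.15 for *LPCAT1*, 0.411 for *ARHGAP40* and 0.475 for *PARP11*. In SKOV3 it was 2.52 for *HSPB8* and 0.4 for *G0S2*, and in OVCAR8 no silent gene of another line reached 2 times. This was 3.70% of the 81 genes that MDA-MB-231 expressed, 1.96% of 51 in HCC1954, 0% of 84 in OVCAR8 and 2.38% of 84 in SKOV3, against 2.28%, 3.80%, 0.396% and 2.31% of all genes at 5 CPM or more in all 3 libraries of the line.

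**Figure D5:**
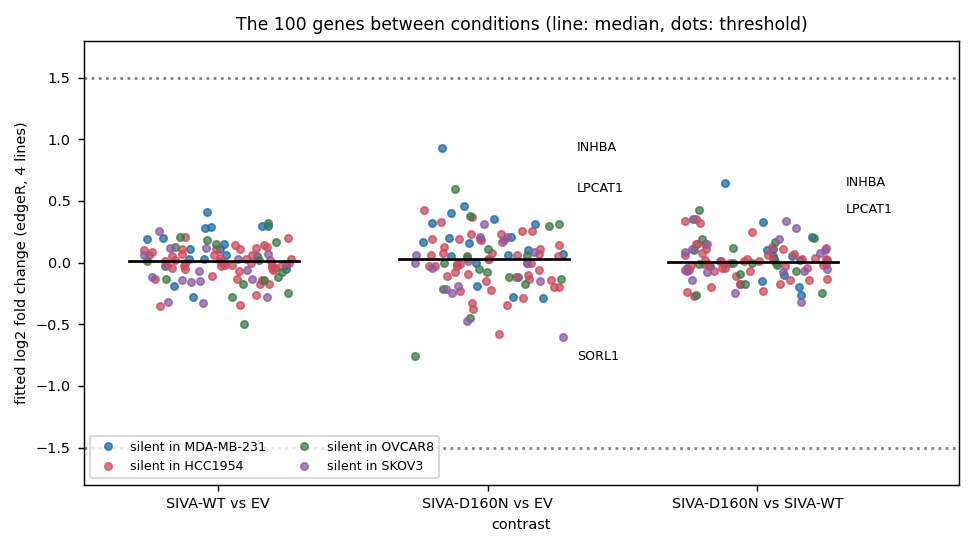
Fitted log2 fold change (edgeR, 4 lines) of the 100 genes in 3 contrasts of the conditions, 1 point per gene, coloured by the line in which it was silent, with the median as a black line and the threshold of 1.5 dotted. No point reaches the threshold, and the medians are 0.03 for *SIVA-D160N* vs EV, 0.01 for *SIVA-WT* vs EV and 0.00 between the transfectants.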

How the data were processed

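Stranded mRNA libraries of 12 cell populations were sequenced. The authors aligned the reads to GRCh38 and deposited gene counts without normalization, and the submitters' processing notes name STAR 2.5.3a, FastQC and edgeR. The annotation release and the strand setting of the counting are not given in the sources used here. The authors also deposited a table of CPM values, scaled to TMM-adjusted library sizes and holding fewer genes, which was not used. All columns of the count table matched a library (0 without one). Here CPM was the count divided by the column sum.

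The members and gene lists were chosen with earlier results of these data known. Conditions were compared with edgeR 4.0.16 in R 4.3.3 by the quasi-likelihood method, TMM normalization, filterByExpr and terms for line and condition, with the line as the replicate block because the labels number no replicates and libraries of a line share that line. Lines were compared with a term for condition. DESeq2 1.42.0 was an alternative. Both fits and the search for silent genes were tested on simulated data. Gene IDs were matched to GENCODE symbols and then to RefSeq positions and promoters on GRCh38.p14, which placed 98 of 100 genes. Relatives were the best blastp 2.17.0 match (E value up to 1e-10) between proteins translated from GENCODE canonical transcripts. Labels name no batch. Values in every library are given for the 6 genes per line with the highest lowest CPM elsewhere, for genes in close pairs and for *MTAP*, and all 100 genes are named. *NRG1*, *INHBA*, *SORL1*, the relatives, the expressed genes around close pairs and the genes that differed most between expressing lines were named after their values were seen. Most neighbours and relatives are given as counts only, and some are not reported here.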

Additional observations from a re-analysis of the deposited data

Results flagged for a closer look

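Each of 15 sets of 4 lines was checked for a line far from the others, which chance gives in about 1 of 20 sets, and 5 stood out. HCC1954 had the largest percent of genes at 5 CPM or more in the other lines with at most 3 counts in its own library, at 0.695% in EV, 0.618% in *SIVA-WT* and 0.673% in *SIVA-D160N*. These 3 values concern the same cells and the same measure that chose the genes, so they are not independent of each other or of that choice, and they describe the choice and test nothing. The percent of the silent genes of other lines with a CPM ratio of 2 or more, up or down, for *SIVA-D160N* over *SIVA-WT* was 1.96 in HCC1954, which was *INHBA* alone (ratio 2.34), and 0 in the other lines. For *SIVA-WT* over EV it was 2.38 in SKOV3, from *SORL1* (ratio 0.449) and *HSPB8* (ratio 2.05), and 0 in the other lines. Each of these ratios rests on 1 library per condition. Both sets rest on 1 or 2 genes against 0.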

How the results depend on the processing

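The number of silent genes was 100. It was 50 with 0 counts demanded in each library of the line, 271 with at least 1 CPM in the other lines and 64 with at least 10 CPM. It was 145 with up to 10 counts and 98 with TMM scaling (97 shared with the 100, without *BCAT1*, *LINC01605* and *SH3RF3*), and 100 to 109 with 1 library left out, all 100 being shared each time. No silent gene was called between conditions under any alternative run. Over all genes, *SIVA-D160N* vs EV gave 1 call and 12 with DESeq2, 172 with all genes with at least 1 count, 0 with no replicate block for the line and 0 to 2 with 1 line left out (0 without MDA-MB-231 or SKOV3, 2 without HCC1954 or OVCAR8). *SIVA-D160N* vs *SIVA-WT* gave 0, and 3 and 59 under the first pair of these. *SIVA-WT* vs EV gave 0, and 1 and 10. The no-block fit gave 0 calls in these 2 contrasts too. Lower neighbours with no distance limit were 32 in HCC1954 in place of 19, 7 in MDA-MB-231 in place of 4, and 11 in OVCAR8 in place of 6, as more genes are then counted. Leaving out 1 library of the line gave 16 to 21 in HCC1954, 4 in MDA-MB-231, 6 to 7 in OVCAR8 and 14 in SKOV3. The median CpG ratio of the silent genes minus that of genes expressed in all libraries was -0.05, and 0.04 against all promoters in the table. The cause of these changes was not tested. Genes under the limit of 3 counts cannot be told from absent ones at this depth.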
